A study of Mus musculus with 6 samples.

Results

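The genes followed here serve androgen synthesis in the testis and its endocrine control: Scarb1, Star, Cyp11a1, Hsd3b1, Hsd3b6, Cyp17a1, Lhcgr, Insl3, Hsd17b1 and Hsd17b3. They were taken by symbol from a list, and all 10 were found among the 22320 genes of the authors' deposited table. Whole testes were taken at postnatal day 1.5 and pooled by 4, and poly(A) RNA of 3 such pools per group was sequenced. The Arid4bSCKO mice carried 1 null and 1 floxed Arid4b allele together with the Amh-cre transgene (Arid4b-/Flox; Amh-cre). The control mice carried 1 wild-type and 1 floxed allele with the same transgene (Arid4b+/Flox; Amh-cre). Both groups were on a hybrid C57BL6/J and 129/SvEv background. The Amh promoter drives Cre in Sertoli cells, and no control group without Cre or without the floxed allele was used here. The null allele is present in every cell of an Arid4bSCKO mouse, so Leydig cells and Sertoli cells both differ in genotype from the control.

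Leydig cells lie between the testis cords and take up cholesterol, move it into mitochondria and convert it to steroids under luteinizing hormone. Sertoli cells lie inside the cords. In the fetal mouse testis the work is divided: fetal Leydig cells carry the pathway as far as androstenedione, and the last reduction to testosterone is done in Sertoli cells by 17-beta-hydroxysteroid dehydrogenases, HSD17B3 and HSD17B1. In the adult testis Leydig cells make HSD17B3 themselves. A whole testis at this age holds fetal Leydig cells and Sertoli cells together, so fewer cells of a type and less RNA per cell cannot be told apart in these values.

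Levels are the authors' group means of log2(normalized count + 1), and a difference is the Arid4bSCKO mean minus the control mean on that scale. The files hold no value per pool, so each gene has 1 value per group, and the spread between pools was derived from the p-value given for that gene. It is written here as the implied SD, with the 95% interval of the difference that follows from it. A gene was called where the FDR in the authors' deposited table was below 0.05. A second call used limma's moderated variance over 19095 genes, with adjusted p below 0.05. Depth was worked out from the group means and covers only what was counted for genes. It came to about 17.6 M reads (M, mega) for an Arid4bSCKO library and 18.6 M for a control library. The targeted gene Arid4b was at 8.68 in Arid4bSCKO and 10.19 in control, a difference of -1.51 (95% interval -1.82 to -1.21). Its moderated adjusted p in limma was 2.23e-05. The authors' deposited table gives it an FDR of 0.0535.

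Of the 10 genes, both Sertoli cell steps had lower means in Arid4bSCKO than in control, with differences of -1.94 for Hsd17b1 and -1.19 for Hsd17b3. The means of the 8 Leydig cell genes differed by 0.40 or less in either direction. Among these 8, Hsd3b6 was near the limit of detection, with an interval of -2.90 to 3.09. By the FDR in the authors' deposited table, 0 of the 10 genes were called in either direction, where 0.121% of all genes were called lower and 0.139% higher. By the unadjusted p in the authors' deposited table, 2 of the 10 were lower at a threshold of 0.05, against 11.1% of all genes, and 0 were higher, against 9.86%. The moderated test in limma called 1 of the 10 lower, Hsd17b1, where it called 6.46% of the fitted genes lower. It called 0 of the 10 higher, where it called 7.37% of the fitted genes higher. The median difference was -0.09 over the 10 genes and -0.04 over all fitted genes.

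**Figure D1:**
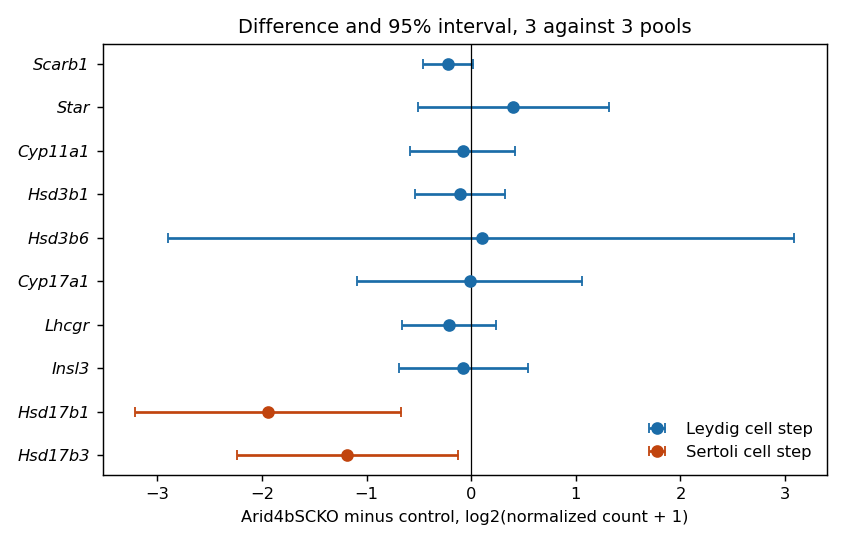
Difference between Arid4bSCKO and control in log2(normalized count + 1) for each of the 10 genes (x axis), with the 95% interval worked back from the deposited p-value; red marks the Sertoli cell steps and blue the Leydig cell genes. The intervals of Hsd17b1 and Hsd17b3 lie left of 0, and the intervals of all 8 Leydig cell genes hold 0.

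Hsd17b1 encodes an enzyme that reduces 17-keto steroids; in the mouse it acts on androstenedione as well as on estrone. The gene lies at chr11:101078411-101080505 (mm10). Its mean level was 10.06 in Arid4bSCKO and 12.00 in control. On the count scale this is 1063 normalized counts in Arid4bSCKO and 4084 in control. The Arid4bSCKO level was thus 26.0% of the control level, with a 95% interval of 10.8 to 62.7%. The difference of -1.94 had an interval of -3.21 to -0.67 and an implied SD of 0.56 between pools. The moderated test in limma called it lower with an adjusted p of 0.0419. In the authors' deposited table its FDR was 0.144. In addition, limma without the level trend and robust fitting gave an adjusted p of 0.0744, so the call rests on how the variance is estimated. The log2 ratio of group medians in the authors' deposited table was -2.06. Only 0.414% of the fitted genes had a lower difference than Hsd17b1, which was the 80th lowest of them. Its neighbours on chromosome 11 differed by -0.11 (Naglu) and 0.11 (Coasy), and neither was called.

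Hsd17b3 encodes the testicular enzyme that reduces androstenedione to testosterone. The gene lies at chr13:64058274-64089201 (mm10). Its mean level was 11.41 in Arid4bSCKO and 12.60 in control. In normalized counts these means are 2715 in Arid4bSCKO and 6186 in control, or 43.9% of the control level with an interval of 21.1 to 91.1%. The difference was -1.19 (95% interval -2.24 to -0.13), and the implied SD was 0.46. Hsd17b3 passed neither call: the moderated adjusted p in limma was 0.0683, and its FDR was 0.204 in the authors' deposited table. The log2 ratio of medians in the authors' deposited table was -1.50. Among the fitted genes 2.49% had a lower difference. A difference at or under -1 was found in 3.88% of the fitted genes.

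The transcripts of both Sertoli cell genes can be told from other genes by sequence. None of the 50-base windows of the Hsd17b1 or Hsd17b3 transcript occurred in the transcript of another gene. A read taken from them therefore has no identical copy elsewhere among the annotated transcripts of GENCODE release M21. RefSeq gives promoter sequence for 6 of the 10 genes, which holds 250 bases before the start of transcription and 50 bases from it on, and for Cyp11a1 it gives 2 starts. The letters TCAAGG, a form of the sequence that the steroidogenic receptor NR5A1 (SF1) is known to bind, were searched on both strands. They occur in 14.4% of 32851 mouse promoters of that length. Of the 6 genes with a promoter sequence, 4 held them: Hsd3b1, Cyp11a1 at its downstream start, Insl3 and Lhcgr. Hsd17b3 and Hsd3b6 did not. The shorter form CAAGG occurs in 52.1% of promoters, and the Hsd17b3 promoter held 1 match to it while that of Hsd3b6 held none. The longer form CAAGGTCA occurs in 1.56% of promoters and in 0 of the 6 genes' promoters. Shown 5′ to 3′ are the promoter of the Sertoli cell step and those of the first and the following Leydig cell enzyme, with capitals marking TCAAGG or its reverse complement. In GRCm38.p6 they lie at chr13:64089152-64089451 on the minus strand (Hsd17b3), chr9:58014702-58015001 on the plus strand (Cyp11a1) and chr3:98859745-98860044 on the minus strand (Hsd3b1).
Hsd17b3: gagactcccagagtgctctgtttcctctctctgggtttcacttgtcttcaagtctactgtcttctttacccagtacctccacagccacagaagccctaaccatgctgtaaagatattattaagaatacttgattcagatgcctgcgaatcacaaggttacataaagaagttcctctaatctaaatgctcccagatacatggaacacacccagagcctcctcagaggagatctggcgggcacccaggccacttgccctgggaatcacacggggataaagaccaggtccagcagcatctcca
Cyp11a1: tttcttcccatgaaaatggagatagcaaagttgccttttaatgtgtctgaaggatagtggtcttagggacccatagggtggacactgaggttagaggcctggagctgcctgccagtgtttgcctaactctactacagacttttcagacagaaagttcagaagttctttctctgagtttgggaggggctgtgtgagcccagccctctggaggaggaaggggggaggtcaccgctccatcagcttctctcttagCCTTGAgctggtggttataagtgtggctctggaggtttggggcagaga
Hsd3b1: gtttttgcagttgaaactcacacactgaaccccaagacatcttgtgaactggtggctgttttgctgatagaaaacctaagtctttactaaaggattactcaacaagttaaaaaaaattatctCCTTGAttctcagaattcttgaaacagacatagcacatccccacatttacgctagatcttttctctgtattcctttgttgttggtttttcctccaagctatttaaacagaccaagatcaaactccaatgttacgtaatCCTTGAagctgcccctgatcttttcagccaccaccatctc
A match of 6 letters is a description of these windows and not a binding site. Counted from its downstream RefSeq start, Cyp11a1 has its match at position 3. That window ends at 58015001, before the Cyp11a1 start of 58015017 in the authors' deposited table. By the start in the authors' deposited table, the match thus lies upstream of the gene. Hsd3b1 has a match 11 bases into the transcript and another at position -128, counted from the start.

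Scarb1 and Star bring cholesterol to the pathway. SCARB1 is the receptor that takes up cholesterol esters from high-density lipoprotein, and STAR moves cholesterol to the inner mitochondrial membrane. Scarb1 (chr5:125277087-125341094, mm10) was at 12.88 in Arid4bSCKO and 13.11 in control, or 7556 normalized counts in Arid4bSCKO and 8821 in control. Its difference of -0.22 had an interval of -0.46 to 0.02 and the smallest implied SD of the 10 genes, 0.11. Its moderated adjusted p in limma was 0.122. Star (chr8:25808513-25815982, mm10) was at 12.18 in Arid4bSCKO and 11.77 in control, or 4623 normalized counts in Arid4bSCKO and 3493 in control. Star had the highest difference of the 10 genes, 0.40, but its interval ran from -0.51 to 1.32 with an implied SD of 0.40. Its moderated adjusted p in limma was 0.382. The interval for Star allows a level between 70.3 and 249% of control.

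Cyp11a1, Hsd3b1 and Cyp17a1 encode the enzymes that turn cholesterol into androstenedione in Leydig cells. CYP11A1 cleaves the cholesterol side chain to pregnenolone. Its gene (chr9:58015017-58027023, mm10) was at 13.60 in Arid4bSCKO and 13.68 in control, a difference of -0.08 (interval -0.59 to 0.42). The Arid4bSCKO level was 94.5% of the control level, with an interval of 66.5 to 134%. HSD3B1 oxidizes and isomerizes pregnenolone and its derivatives to the keto form. Hsd3b1 (chr3:98852197-98859794, mm10) was the most abundant of the 10, at 14.02 in Arid4bSCKO and 14.12 in control, a difference of -0.11 (interval -0.54 to 0.32). CYP17A1 adds the 17-hydroxyl group and cleaves the side chain that follows. Cyp17a1 (chr19:46667165-46673000, mm10) was at 12.60 in Arid4bSCKO and 12.62 in control, or 6229 normalized counts in Arid4bSCKO and 6280 in control. The Cyp17a1 means were the closest of the 10, with a difference of -0.01. Its pools varied more, with an implied SD of 0.47, and the interval of -1.09 to 1.06 allows 47.1 to 209% of control. A change of Cyp17a1 as large as the one measured in Hsd17b3, to 43.9%, would lie just below that interval. Moderated adjusted p in limma was 0.731 for Cyp11a1, 0.605 for Hsd3b1 and 0.987 for Cyp17a1.

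Hsd3b6 encodes the isoform known from adult Leydig cells and from the mouse adrenal gland. Hsd3b6 (chr3:98805504-98814443, mm10) was near the limit of detection, at 1.57 in Arid4bSCKO and 1.48 in control. These means are 1.97 normalized counts in Arid4bSCKO and 1.79 in control, worth about 1.47 and 1.45 reads per library. The interval of its difference, -2.90 to 3.09, allows 13.4 to 853% of control, so a change of any size in this range was not detectable at this depth. Hsd3b6 lies beside Hsd3b1 on chromosome 3 and is close to it in sequence. Their coding sequences have 1122 bases each, of which 1010 are identical. The first 60 coding bases, read from GENCODE release M21 transcripts, differ at 7 positions, shown in capitals.
Hsd3b1: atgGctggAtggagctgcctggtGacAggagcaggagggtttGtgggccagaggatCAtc
Hsd3b6: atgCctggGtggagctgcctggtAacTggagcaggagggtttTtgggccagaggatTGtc
Of the 50-base windows of the transcripts, 4.98% of Hsd3b1 and 16% of Hsd3b6 occur in another gene, mostly in other members of the Hsd3b cluster. How the authors' counting treated such reads is not given in the sources used here, so the Hsd3b6 value is uncertain beyond its few reads.

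Lhcgr and Insl3 belong to the endocrine side of the Leydig cell. Lhcgr encodes the receptor for luteinizing hormone, which raises cyclic AMP and through it steroid synthesis. Lhcgr (chr17:88716483-88791976, mm10) was at 8.08 in Arid4bSCKO and 8.30 in control, or 271 normalized counts in Arid4bSCKO and 313 in control. Its difference of -0.21 had an interval of -0.66 to 0.24 and a moderated adjusted p in limma of 0.387. Insl3 encodes the Leydig cell hormone that acts on the gubernaculum through RXFP2 during testis descent. Insl3 (chr8:71689252-71690577, mm10) was at 11.36 in Arid4bSCKO and 11.43 in control, a difference of -0.08 (interval -0.69 to 0.54), with a moderated adjusted p in limma of 0.806. Insl3 overlaps Jak3 on the same strand over 1362 bases, and 61.8% of its 50-base windows also occur in Jak3 transcripts. Strand cannot separate the pair. Jak3 was listed with 117 normalized counts in Arid4bSCKO and 92.2 in control, beside 2618 in Arid4bSCKO and 2758 in control for Insl3.

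**Figure D2:**
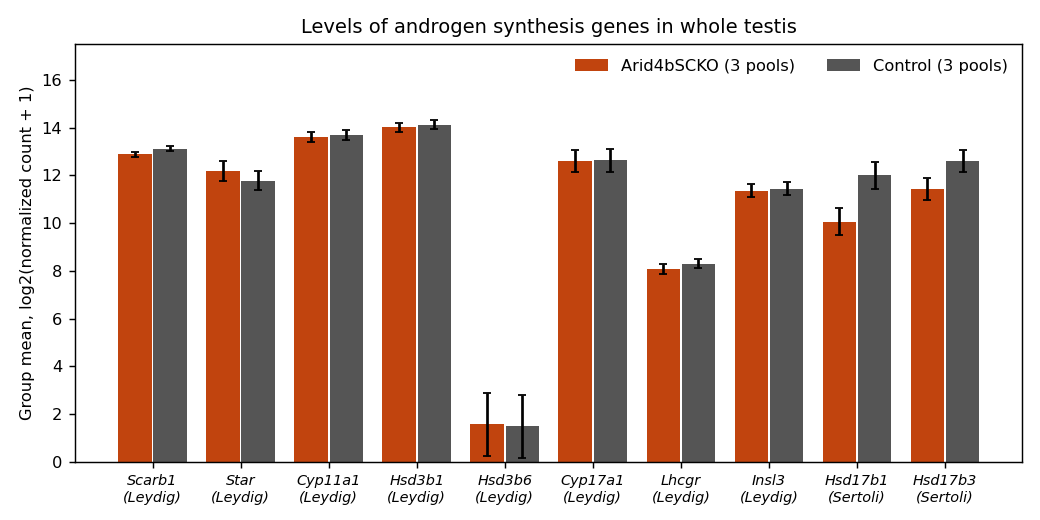
Group means of log2(normalized count + 1) for the 10 genes, Arid4bSCKO in red and control in grey; error bars show the SD between pools implied by the deposited p-value, which is 1 value for both groups of a gene. The red bars of Hsd17b1 (10.06) and Hsd17b3 (11.41) stand below the grey bars (12.00 and 12.60) by more than the error bars, and the bars of the other genes differ by no more than 0.40.

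Set side by side, the 8 Leydig cell genes had a median difference of -0.08 and a range of -0.22 to 0.40, and 6 of the 8 were negative. Their normalized counts summed to 50297 in Arid4bSCKO and 52669 in control. The 2 Sertoli cell genes had a median of -1.56 and summed to 3777 in Arid4bSCKO and 10270 in control. The intervals of 3 of the 8 Leydig cell genes overlapped that of Hsd17b1, and those of 8 of the 8 overlapped that of Hsd17b3. Hsd3b6, near the limit of detection, is counted among the 8 throughout and was 1 of these 3. A test of the Leydig cell genes against the Sertoli cell genes needs values per pool, because the genes share their libraries, and was not made. The distance between the 2 kinds of step is therefore given as a description.

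Per kilobase of transcript, the unit in which levels can be compared between genes, the means of the Sertoli cell steps were below that of Cyp17a1 in Arid4bSCKO, and near or above it in control. Hsd17b3 had 2111 normalized counts per kilobase in Arid4bSCKO and 4811 in control. Hsd17b1 had 794 per kilobase in Arid4bSCKO and 3050 in control. Cyp17a1, the enzyme whose product the Sertoli cell steps use, had 3432 per kilobase in Arid4bSCKO and 3460 in control. The level of Hsd17b3 was thus 0.615 of that of Cyp17a1 in Arid4bSCKO and 1.39 of it in control. For Hsd17b1 the same ratio was 0.231 in Arid4bSCKO and 0.881 in control. Hsd17b3 exceeded Hsd17b1 by 2.66 times in Arid4bSCKO and by 1.58 times in control. These ratios come from group means and have no error of their own.

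In Arid4bSCKO the levels per kilobase ran, highest first, Hsd3b1, Cyp11a1, Insl3, Cyp17a1, Scarb1, Hsd17b3, Star, Hsd17b1, Lhcgr and Hsd3b6. Within this order Insl3 and Cyp17a1, Cyp17a1 and Scarb1, and Star and Hsd17b1 lay closer together than the larger implied SD of the pair. In control the order was Hsd3b1, Cyp11a1, Hsd17b3, Insl3, Scarb1, Cyp17a1, Hsd17b1, Star, Lhcgr and Hsd3b6. There the neighbours within the larger implied SD were Cyp11a1 and Hsd17b3, Hsd17b3 and Insl3, Scarb1 and Cyp17a1, and Cyp17a1 and Hsd17b1. Hsd17b3 stood in the third place in control and in the sixth in Arid4bSCKO. Hsd3b1 was first in both groups, at 8927 per kilobase in Arid4bSCKO and 9615 in control. The Insl3 level includes any Jak3 reads counted for it, and lacks any Insl3 reads counted for Jak3 or left out as shared. Which of these applies is not given in the sources used here, so its place in the order is uncertain.

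The spread between pools was high for several of the 10 genes. Each implied SD was placed among those of the genes within 0.5 log2 of the same level, 2266 genes in the case of Hsd17b1. The SD of Hsd17b1, 0.56, stood at the 99.7th percentile, where the median SD was 0.10. That of Hsd17b3 stood at the 99.6th percentile. Among the Leydig cell genes, Cyp17a1 was at the 99.4th, Star at the 99.3rd, Insl3 at the 97.8th and Cyp11a1 at the 92.2nd percentile. Hsd3b6 was at the 88.2nd, Hsd3b1 at the 80.3rd, Lhcgr at the 66.1st and Scarb1 at the 50.5th percentile. High spread was therefore present at Leydig cell genes whose means were close, such as Cyp17a1, and at the Sertoli cell genes. Which pools carried it cannot be read from group means. The Sertoli cell marker list, described next, had a median percentile of 97.1, with 12 of its 20 genes above the 95th. High spread was not particular to these cells. The median percentile was 96.2 for the immediate-early genes and 95.4 for the germ cell markers described below. It was 86.6 for the macrophage markers and 81.2 for the fetal Leydig cell markers other than the 10 genes.

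**Figure D3:**
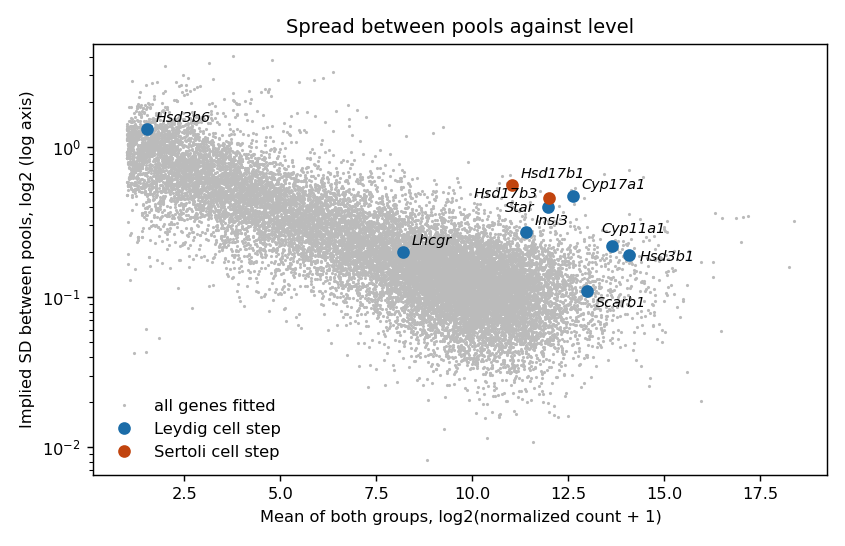
Implied SD between pools in log2 units (y axis, log scale) against the mean of both groups in log2(normalized count + 1) for all fitted genes (grey), the Leydig cell genes (blue) and the Sertoli cell steps (red). Hsd17b1, Hsd17b3, Cyp17a1 and Star, with SDs of 0.56, 0.46, 0.47 and 0.40, lie at the upper edge of the genes of like level, and Scarb1, with 0.11, lies in the middle of them.

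Of 20 markers of Sertoli cells, 20 were in the table and none was at 0, and their normalized counts summed to 125137 in Arid4bSCKO and 188162 in control. The moderated test in limma called 10 of the 20 lower and 2 higher, beside 6.46% of all fitted genes lower and 7.37% higher. The median difference of the 20 was -0.71, with a range of -1.62 to 0.95. Of the 20, 0 were called by limma without the level trend and robust fitting, and 0 by the FDR in the authors' deposited table, where the unadjusted p was below 0.05 for 11 lower and 2 higher ones. Amh, the Müllerian inhibiting hormone, was at 12.63 in Arid4bSCKO and 14.25 in control and was not called, with a moderated adjusted p in limma of 0.111. Amh was 1 of the 20 markers with a lower difference than Hsd17b3, the only such marker, and 0 of the 20 were lower than Hsd17b1. The inhibin subunit genes Inha and Inhbb were called lower, with differences of -0.91 and -0.95 (moderated adjusted p in limma 0.0373 and 0.0424). Sox9, the factor that sets the Sertoli cell fate, was at 10.81 in Arid4bSCKO and 10.67 in control and was not called. Cldn11, a tight junction gene, was called higher, at 9.88 in Arid4bSCKO and 8.93 in control. Their part in the Hsd17b1 and Hsd17b3 values was not tested.

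Markers of fetal Leydig cells other than the 10 genes were read in both groups. In RNA of whole testis they do not by themselves show which cells expressed them. Of 10 markers, 1 was called lower and 2 higher by the moderated test in limma, beside 6.46% of all fitted genes lower and 7.37% higher. With so few genes in a list, 1 call is close to that share. The 10 markers had a median of -0.19 and sums of 16228 in Arid4bSCKO and 18654 in control. The gene called lower was Fdxr, which is also in the list of electron donors below. Those called higher were Vcam1 (0.62) and Hpgd (0.49). Of 6 markers of Leydig progenitors, Nr2f2 was called lower (-0.38) and Nes higher, at 11.71 in Arid4bSCKO and 10.23 in control. Adrenal cortex genes, which some cells of the fetal mouse testis also express, summed to 816 in Arid4bSCKO and 1256 in control over 6 genes. Cyp21a1 was at 8.35 in Arid4bSCKO and 8.37 in control and Cyp11b1 at 5.54 in Arid4bSCKO and 5.01 in control. Cyp11b2 was at 1.07 in Arid4bSCKO and listed at 0 in control. Akr1b7, of the same list, was called lower, at 8.39 in Arid4bSCKO and 9.58 in control (moderated adjusted p in limma 0.0155). With 333 normalized counts in Arid4bSCKO and 765 in control, Akr1b7 made up most of the gap between the sums.

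Macrophages lie beside Leydig cells in the interstitium. All 12 macrophage markers were called higher by the moderated test in limma, beside 7.37% of all fitted genes, with a median of 1.03 and sums of 7622 in Arid4bSCKO and 3470 in control. Of 8 immediate-early genes, which respond within minutes to stress and handling of tissue, 5 were called higher, with a median of 0.97 and a highest difference of 3.70 at Atf3. Of 7 germ cell markers 1 was called lower (Dppa4), beside 6.46% of all fitted genes, with a median of -0.43. The 5 endothelial markers had a median of -0.22 with none called, and of 5 peritubular myoid markers 1 was called higher, with a median of 0.21. Without the level trend and robust fitting, limma called 1 macrophage marker (C1qa), 2 immediate-early genes (Atf3 and Junb) and 1 myoid marker (Tagln), all higher, and no gene of the other marker lists. The FDR in the authors' deposited table called 0 genes of any marker list. The part of these cells and genes in the values of the 10 genes was not tested.

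The lists of genes around the pathway, 6 in number, held 99 symbols, of which 98 were in the table and 89 were fitted. The moderated test in limma called 14 of them lower and 5 higher, beside 6.46% of all fitted genes lower and 7.37% higher. Their median was -0.11 over the fitted ones. The FDR in the authors' deposited table called 0 of them. By the unadjusted p in the authors' deposited table, 19 were lower and 9 higher at a threshold of 0.05, beside 11.1% and 9.86% of all genes. Without the level trend and robust fitting, limma called 1, Cebpb, which was higher.

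The median difference of 13 genes of cholesterol supply and transfer was 0.09. The moderated test called 3 of them higher and 0 lower, beside 7.37% of all fitted genes higher and 6.46% lower. The 3 were Tspo, a protein of the outer mitochondrial membrane, at 9.96 in Arid4bSCKO and 9.10 in control, its binding partner Acbd3, at 11.12 in Arid4bSCKO and 10.43 in control, and Npc2, which carries cholesterol out of lysosomes. Their differences were 0.86, 0.69 and 0.35, with moderated adjusted p in limma of 0.00145, 0.00137 and 0.0166. Soat1, which esterifies cholesterol, had 0.24 and the carrier gene Stard5 -0.19; both had intervals that leave out 0 and were not called by the moderated test. Among 7 genes of the electron donors that steroid enzymes need, Fdxr, the reductase that feeds mitochondrial enzymes such as CYP11A1, was called lower, by a difference of -0.52 (moderated adjusted p in limma 0.0125). Its partner Fdx1 had a difference of 0.33 with an interval of -0.19 to 0.86, and Por, which serves CYP17A1, had 0.21; neither was called. Cyb5r3, the reductase of cytochrome b5, had 0.19 with an interval of 0.07 to 0.32 and was not called.

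Among 33 further steroid enzymes, 32 were in the table and 23 were fitted, with a median of -0.06. The moderated test called 2 lower and 0 higher, beside 6.46% of all fitted genes lower and 7.37% higher. With so few genes in the list, 2 calls are close to that share. The 2 were Hsd11b2, which inactivates glucocorticoids, at 8.80 in Arid4bSCKO and 9.55 in control, and the steroid sulfotransferase Sult2b1, at 4.80 in Arid4bSCKO and 5.84 in control. The moderated adjusted p in limma was 0.002 for Hsd11b2 and 0.0359 for Sult2b1. Of the other 17-beta-hydroxysteroid dehydrogenase genes, Hsd17b12 was at 11.73 in Arid4bSCKO and 11.51 in control, Hsd17b10 at 11.02 in Arid4bSCKO and 10.96 in control, and Hsd17b4 at 10.86 in both groups. None of the 3 was called, though the interval of Hsd17b12, 0.04 to 0.40, leaves out 0. Hsd17b7, Hsd17b8 (listed as H2-Ke6) and Hsd17b11 had differences of -0.23, -0.06 and 0.06. At low levels, Hsd17b2 had -1.04 (interval -2.55 to 0.46), Hsd17b13 -1.02 (-2.37 to 0.32) and Hsd17b14 -0.92 (-3.36 to 1.52). Hsd17b6 had 0.47 (-1.88 to 2.81) and was too low to be fitted. None of these was called either. Cyp19a1, the aromatase, was low, at 2.65 in Arid4bSCKO and 3.48 in control. Its difference was -0.83 with an interval of -1.38 to -0.28, and it was not called. Akr1c13, an aldo-keto reductase gene, had a difference of 0.67 (interval 0.08 to 1.25) and was not called either. The 5-alpha-reductase gene Srd5a1, whose enzyme makes dihydrotestosterone, was at 8.10 in Arid4bSCKO and 8.16 in control.

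Among 22 transcription factors of steroidogenic cells the median difference was -0.22. The moderated test called 6 of them lower and 1 higher, beside 6.46% of all fitted genes lower and 7.37% higher. Nr5a1, which activates many steroid enzyme genes in Leydig cells and also acts in Sertoli cells, was at 12.18 in Arid4bSCKO and 12.71 in control (moderated adjusted p in limma 0.00339). Gata6 had a difference of -0.61 and Gata4 of -0.39, and Cited2, Nr2f2 and Sp1, with -0.49, -0.38 and -0.35, made up the other genes called lower. Maf and Cbx2 had -0.23 and -0.26, with intervals that leave out 0, and were not called. Cebpb was called higher, at 7.60 in Arid4bSCKO and 6.47 in control (moderated adjusted p in limma 0.00159). Nr0b1, a repressor of NR5A1 activity, had -0.44 with an interval of -1.50 to 0.62 and was not called. Nr5a1, Gata4 and Wt1 are also in the Sertoli cell marker list, and Nr2f2 is also in the progenitor list.

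The median difference of 16 genes of signalling through cyclic AMP was -0.12. The moderated test called 3 of them lower and 1 higher, beside 6.46% of all fitted genes lower and 7.37% higher. The phosphodiesterase Pde8b, the adenylyl cyclase Adcy9 and the catalytic kinase subunit Prkaca had differences of -0.66, -0.56 and -0.43. Akap1, an anchor of protein kinase A at mitochondria, had 0.32 and was the gene called higher. Prkacb, another catalytic subunit gene, had -0.23 (interval -0.44 to -0.01) and was not called. Gnas, which couples the LH receptor to the cyclase, was at 14.79 in Arid4bSCKO and 14.72 in control. Of 8 receptors and carriers for steroids and INSL3, all 8 had negative differences, 2 were called lower and the median was -0.56. The estrogen receptor genes Esr2 and Esr1 were those called, at 7.31 and 8.05 in Arid4bSCKO, against 8.21 and 8.63 in control (moderated adjusted p in limma 0.00603 and 0.0207). Pgr, the progesterone receptor gene, had -0.59 (interval -1.02 to -0.17) and was not called. Rxfp2, the INSL3 receptor gene, was at 3.47 in Arid4bSCKO and 3.87 in control and was not called.

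**Figure D4:**
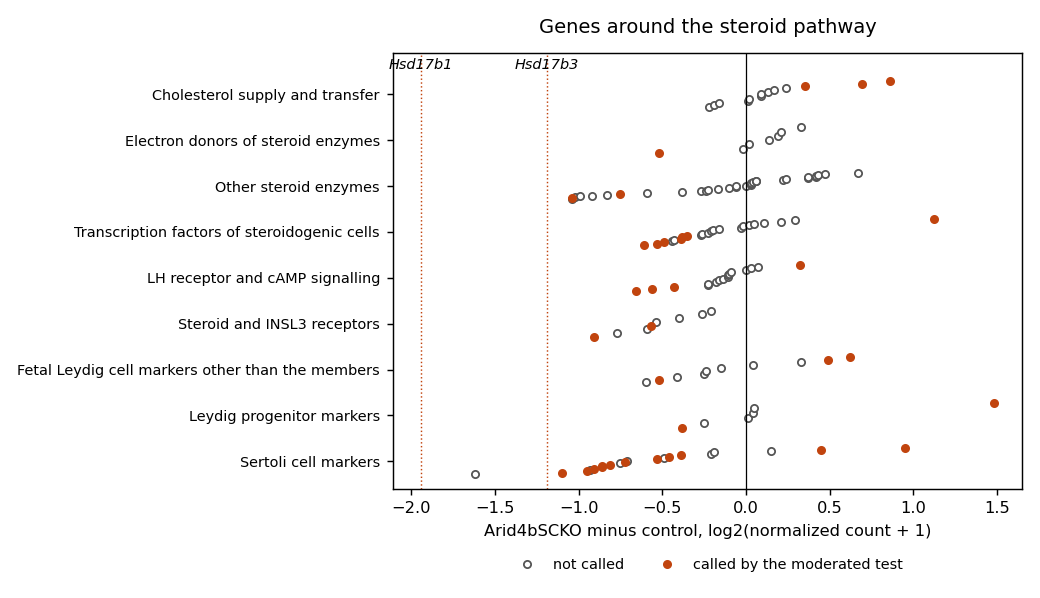
Difference between Arid4bSCKO and control in log2(normalized count + 1) (x axis) for each gene of 6 lists around the steroid pathway and 3 marker lists; filled points were called by the moderated test and open points were not or were too low to be fitted. Dotted lines mark Hsd17b3 at -1.19 and Hsd17b1 at -1.94, and of all the points only Amh, at -1.62, lies between them.

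The genes whose 2 group means lay closest to those of Hsd17b1 were Kazald1, Trim62 and Hhip. The measure was the distance between the pairs of log2 means over the 2 groups, and it was 0.17, 0.56 and 0.57. Kazald1 was at 10.14 in Arid4bSCKO and 11.85 in control, with a moderated adjusted p in limma of 0.0967. Trim62 was at 10.22 in Arid4bSCKO and 11.46 in control, and Hhip at 10.04 in Arid4bSCKO and 11.43 in control. The moderated test in limma called both lower, with adjusted p of 0.0323 for Trim62 and 0.0136 for Hhip, and did not call Kazald1. With only 2 groups this likeness is one of level and difference.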

How the data were processed

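Stranded mRNA libraries were read in pairs of 50 bases, per the labels' protocols. STAR 2.4 and mm10 are listed in the submitters' processing notes. The counting tool, strand setting, annotation and normalization: not given in the sources used here. Per the file headers, the authors' deposited table gives log2(normalized count + 1) means per group, a log2 ratio of group medians, an unadjusted p-value and an FDR. Nothing states that the pools are from separate litters; p-values may measure technical spread.

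Standard errors were computed from the deposited p-values with 4 residual degrees of freedom. In R 4.3.3, limma 3.58.1 moderated the implied variances (level trend, robust) of 19095 genes at a mean level of at least 1, without 529 rows of filled-in values, with Benjamini-Hochberg adjustment over those genes. This was tested on simulated data, where the spread between pools followed the same rule for all genes. Genes with a spread far above others of like level, such as Hsd17b1, were not built in. The alternatives tried are in the closing section. Counts per kilobase use transcript lengths of GENCODE M21. Lists matched 177 of 178 entries. Members and lists were chosen with earlier results of these data known. Named genes are the members, pathway list genes with an unadjusted p below 0.05 or called by the moderated test, called markers, and the 3 nearest to Hsd17b1; others, named for their place in the pathway, were chosen after their values were seen. Depth came from what 1 read is worth, 1.28, 1.30 and 1.45 normalized counts across Arid4bSCKO libraries against 1.20, 1.23 and 1.25 across control libraries. Log2 folds understate changes of low genes.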

Additional observations from a re-analysis of the deposited data

How the results depend on the processing

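The FDR in the authors' deposited table called 0 of the 10 genes and 0 of the steroid pathway genes. Of the 10, limma's moderated test called 1, 1 with the trend on transcript length removed, and 2 with the trend on level removed. Of the pathway genes it called 19, 1 without level trend and robust fitting, 17 with the length trend removed and 21 with the level trend removed. Of 59 tests of single members under these alternatives 55 kept their call and 4 became called: Hsd17b1 under 3 moderated settings and Scarb1 with the level trend removed (adjusted p 0.033). In the 30 values whose difference was itself recomputed (a trend removed, or the authors' ratio of medians, which has no test) the direction held. Hsd3b6 gave no value under a minimum of 5 normalized counts. With length or level trend removed Hsd17b3 had an adjusted p of 0.0502 or 0.0546. No paired analysis was possible because the files hold group values and no value per pool; for the same reason leaving out each replicate was not run. Depth limits Hsd3b6.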
